A study of Mus musculus with 12 samples.

Results

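Gene expression was compared between livers of mice with a hepatocyte deletion of Sirt2 (KO GFP) and wild-type livers (WT GFP), both after injection of a GFP plasmid. The comparison holds 6 of the 12 libraries of the series, 3 in each group. It covers the 13871 genes, of 47263 in the table, whose value reached 10 or more in 3 or more of the 12 libraries. RNA was taken from the whole liver, so that blood, vessel and immune cells contribute along with hepatocytes. The series asked what SIRT2 does in liver cancer driven by the oncogenes MET and beta-catenin, and the GFP livers are its arm without the oncogenes. The other 6 libraries are KO MET/CAT and WT MET/CAT livers, 3 each, which received the oncogene plasmids.

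Groups follow the sample titles. The treatment field of the labels instead follows genotype, with MET/CAT entered for the KO GFP libraries too, and so contradicts their titles. Injection was at an age of 6 to 8 weeks, and livers were collected 8 weeks later. Plasmids were given through the tail vein in a large volume under pressure, which carries DNA into hepatocytes, with a Sleeping Beauty transposase that inserts the cargo into the genome. The protocol text lists the oncogene mixture only, and the GFP plasmid is known from the titles. The sources used here do not give the Cre driver, the deleted exons or the sex of the mice. Nothing in the labels says that libraries of a group came from separate mice, so the p-values reflect the spread among libraries, which may be technical.

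SIRT2 is a deacetylase that uses NAD and works mostly in the cytoplasm, where acetylated alpha-tubulin is its best known substrate. It also deacetylates metabolic enzymes and transcription factors, among them FOXO proteins and the gluconeogenic enzyme PEPCK1. The hepatocyte makes plasma proteins, bile acids, urea and glucose, while Kupffer cells, the resident macrophages of the liver sinusoids, clear particles and old red blood cells. Interferons act through receptors and transcription factors that bind interferon-stimulated response elements in the promoters of antiviral genes.

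The promoters below belong to genes among the 4 of smallest p in the interferon, macrophage or Kupffer cell list. They were picked as examples that hold the motif searched, because most members of these lists had lower values. Each covers 250 bases before and 50 bases after the transcription start site, read 5′ to 3′ on the gene's strand from RefSeq, build GRCm38.p6. Both strands were searched, and overlapping matches were counted. In the first pair, capitals mark matches to the response element core, which is GAAA, any pair of bases and GAAA again, with 3 overlapping matches in Isg15 (chr4:156200769-156201068, minus strand) and 2 in Ifit3 (chr19:34583279-34583578, plus strand). In the second pair, capitals mark the core GAGGAA bound by PU.1, the myeloid transcription factor encoded by Spi1, with 1 match each in Laptm5 (chr4:130913066-130913365, plus strand) and Cd5l (chr3:87357631-87357930, plus strand).
Isg15: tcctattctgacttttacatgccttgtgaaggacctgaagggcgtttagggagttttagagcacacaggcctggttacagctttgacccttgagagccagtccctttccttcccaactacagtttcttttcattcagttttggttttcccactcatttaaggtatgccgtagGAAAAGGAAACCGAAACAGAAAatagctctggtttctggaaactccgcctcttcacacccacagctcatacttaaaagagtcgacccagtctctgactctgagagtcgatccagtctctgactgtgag
Ifit3: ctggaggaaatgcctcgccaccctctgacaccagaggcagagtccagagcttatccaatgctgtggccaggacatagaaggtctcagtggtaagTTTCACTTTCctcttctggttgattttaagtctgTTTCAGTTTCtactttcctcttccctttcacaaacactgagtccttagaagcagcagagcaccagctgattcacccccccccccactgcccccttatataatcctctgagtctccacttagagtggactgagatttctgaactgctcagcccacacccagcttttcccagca
Laptm5: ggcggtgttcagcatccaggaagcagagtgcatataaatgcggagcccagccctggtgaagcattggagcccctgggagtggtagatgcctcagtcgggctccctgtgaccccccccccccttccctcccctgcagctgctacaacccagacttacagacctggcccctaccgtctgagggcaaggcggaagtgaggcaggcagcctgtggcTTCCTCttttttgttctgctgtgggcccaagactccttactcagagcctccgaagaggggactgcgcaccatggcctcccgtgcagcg
Cd5l: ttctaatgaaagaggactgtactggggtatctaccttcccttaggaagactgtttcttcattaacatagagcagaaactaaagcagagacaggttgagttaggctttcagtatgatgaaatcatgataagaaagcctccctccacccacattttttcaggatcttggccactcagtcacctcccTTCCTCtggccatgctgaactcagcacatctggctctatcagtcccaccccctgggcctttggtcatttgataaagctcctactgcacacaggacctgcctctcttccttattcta
The interferon element was present in 17 of the 34 promoters found for the interferon response genes, against 3.44% of 32851 promoters in the table. The PU.1 core was present in 12 of 18 promoters of the C1q and macrophage markers, in 4 of 13 promoters of the Kupffer cell markers, and in 28.3% of all promoters. A match describes the letters and shows no binding.

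The 6 GFP libraries held 18839801 to 24247520 reads. Values are normalized reads, that is, gene counts divided by 1 factor per library, and differences are KO minus WT on the log2(value + 1) scale. KO GFP replicate 3 stood apart, at −89 on the first principal component against −33.2 to 52.8 in the other 11 libraries. Its deviations from the mean of all libraries also rose with exon length (Spearman rho 0.435, across genes and not over replicates), while the other libraries lay between −0.334 and 0.173. Across 13811 genes the KO GFP to WT GFP difference itself rose with exon length (rho 0.371, or 0.209 without KO GFP replicate 3). The median difference was −0.47 in the fifth of genes with the shortest exons and 0.20 in the fifth with the longest. The part of length in any result was not tested beyond the values printed beside it.

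Sirt2 (ENSMUSG00000015149.14, chr7:28766735-28788661, plus strand) had 232.6, 182.5 and 125.7 normalized reads in KO GFP livers, against 823.7, 923.6 and 725.8 in WT GFP livers. All 3 KO libraries lay far below the lowest WT library. Sirt2 fell by 2.22 on the log2 scale (SE 0.23, limma adjusted p = 0.00189), and edgeR and DESeq2 called it as well (adjusted p = 0.00183 and 1.46e-15). Leaving out any 1 GFP library kept the call, with differences of −2.43 to −1.99 and limma adjusted p of at most 0.0271. In a fit of the 6 GFP libraries alone the limma adjusted p was 0.101. With 1 value for the whole gene in the table, Sirt2 reads of cells other than hepatocytes cannot be told apart from reads left in hepatocytes.

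**Figure D1:**
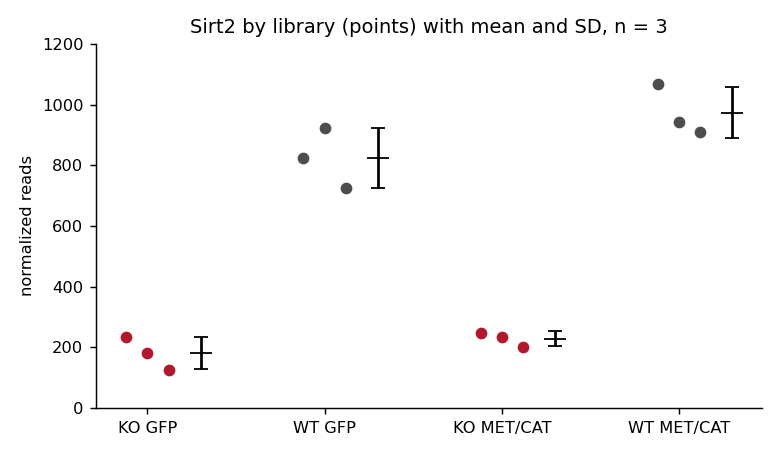
Sirt2 in each library, with normalized reads on a linear axis from 0, points for libraries and bars for mean and SD (n = 3). KO GFP libraries lie between 125.7 and 232.6 and WT GFP libraries between 725.8 and 923.6, with the MET/CAT groups beside them.

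Sirt2 was the single gene of 13871 that passed the test, so that limma called 0 genes higher and 1 lower (0.00721%). At an unadjusted p under 0.05 there were 791 higher (5.7%) and 1364 lower genes (9.83%), together 15.5%. edgeR's quasi-likelihood test on the recovered reads also called 0 higher and 1 lower, and DESeq2 called 52 higher and 69 lower (0.872%). Groups did not overlap for 1269 genes that were higher in all 3 KO GFP livers (9.15%) and for 1797 that were lower in all 3 (13%). With library totals set equal these counts were 1793 and 1274, and the median of all genes was 0.11, against −0.07 as deposited. The balance of higher against lower genes thus turned with the scaling, and list medians are to be read against the median of all genes. Without KO GFP replicate 3 the groups did not overlap for 1835 higher (13.2%) and 2356 lower genes (17%).

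Of the genes below Sirt2 in the ranking by p, 15 higher and 12 lower genes are described first. They had a group mean of at least 100 normalized reads and libraries that did not overlap. None passed the limma test, and their adjusted p ran from 0.0859 to 0.272 for the higher and from 0.107 to 0.162 for the lower genes. DESeq2 called all of them, and edgeR called none. Each kept its sign in all 18 alternative fits. As the genes were chosen for libraries that did not overlap, leaving out a library or changing the pseudocount could not turn a sign. DESeq2 used the same libraries that served for the choice, so neither its calls nor the kept signs are independent support. The higher genes had a median exon length of 6291 bases and the lower genes of 1214 bases, against 4261 for all genes tested. KO GFP replicate 3 was the highest KO library for 10 of the 15 higher genes and the lowest for 10 of the 12 lower genes.

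Enzymes of glutathione synthesis and of aldehyde metabolism were among the higher genes. Gclc (chr9:77754535-77794485), the catalytic subunit of glutamate-cysteine ligase, had 2954, 2578 and 2920 normalized reads in KO GFP livers, against 1440, 1426 and 1456 in WT GFP livers. Gclm (chr3:122245557-122270732), the modifier subunit of the same enzyme, had 3645, 3525 and 4336 in KO and 2463, 2170 and 2485 in WT GFP livers. The 3 libraries of each group lay close together and apart from the other group for both subunits, with differences of 0.96 (SE 0.22, limma adjusted p = 0.215) and 0.69 (SE 0.18, adjusted p = 0.272). The values for Gclc were 0.94 without KO GFP replicate 3 and 1.06 with the length trend removed. Aox3 (chr1:58113130-58200698) and Aox1 (chr1:58029931-58106413), neighbouring genes for aldehyde oxidases, differed by 0.93 and 0.96 (SE 0.19 and 0.21). Aox3 had 4099, 4287 and 4909 in KO and 2627, 2232 and 2110 in WT GFP livers. Akr1c14, an aldo-keto reductase that acts on steroids, had 6256, 5354 and 5726 in KO and 3157, 3649 and 3680 in WT GFP livers (0.73, SE 0.16, adjusted p = 0.209).

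The zinc finger gene Zfp791 (chr8:85108553-85123095) had the largest difference of the 15. Its values were 128.7, 145 and 113 in KO GFP livers, against 17.95, 5.666 and 8.662 in WT GFP livers (3.60, SE 0.58, limma adjusted p = 0.0859). In MET/CAT livers the groups overlapped, at 9.633, 14.65 and 48.83 in KO and 31.9, 52.72 and 87.83 in WT. Zfp791 belongs to a large family of similar zinc finger genes, so that reads may be shared. F2r (chr13:95601803-95618487), the thrombin receptor PAR1, had 304.2, 225.7 and 204.3 in KO and 82.77, 95.19 and 94.41 in WT GFP livers (1.40, SE 0.25, adjusted p = 0.11). Hepatocytes have little of this receptor, which is known from stellate and endothelial cells. Wee1, a kinase that holds back entry into mitosis, had 168.6, 77.81 and 298.3 in KO and 43.88, 26.06 and 21.65 in WT GFP livers (2.39, SE 0.58, adjusted p = 0.247). The KO libraries spread widely for Wee1, and its lack of overlap with the WT libraries was a condition of the choice.

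The other higher genes had differences of 1.11 to 1.66. They were Slc17a8 (1.66), a vesicular glutamate transporter, Vps13a (1.57), a lipid transfer protein at membrane contacts, and Lcorl (1.44), a transcription regulator. They also included Rasal2 (1.40), a GTPase-activating protein for RAS, Pkd1 (1.23), the gene for polycystin-1, Adcy6 (1.13), an adenylyl cyclase, and Slc35g1 (1.11), a solute carrier. Vps13a, Pkd1, Lcorl and Rasal2 were highest in KO GFP replicate 3, and their differences without it were 1.31, 0.89, 1.15 and 1.10.

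Trf (chr9:103204001-103230444), the iron carrier of plasma, had 1138, 2149 and 391.4 in KO GFP livers, against 4698, 7283 and 5233 in WT GFP livers (−2.51, SE 0.44, adjusted p = 0.107). KO GFP replicate 3 was lowest, and the difference without it was −1.85. Hamp2, a hepcidin gene, had 94.86, 48.99 and 62.38 in KO and 220.4, 434 and 1377 in WT GFP livers (−2.92, SE 0.56, adjusted p = 0.145), where the WT libraries spread over a wide range. Its paralogue Hamp, the gene for the iron hormone hepcidin, overlapped between the groups, at 34212, 29665 and 15271 in KO and 32945, 69307 and 26908 in WT GFP livers. Of 17 measured metallothionein and iron genes, 2 were higher without overlap, the zinc and iron importer Slc39a14 (0.46) and ceruloplasmin, Cp (0.45, or 0.18 without KO GFP replicate 3), and 2 lower, Trf and the transferrin receptor Tfrc (−0.76). Both shares, 11.8%, lie near those of all genes, 9.15% and 13%. The median was −0.19, with −0.35 to −0.08 when 1 library was left out.

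Etfb (chr7:43444083-43457800), an electron carrier for fatty acid and amino acid oxidation, had 131, 261.3 and 57.86 in KO and 807.8, 1228 and 573.4 in WT GFP livers (−2.71, SE 0.49, adjusted p = 0.116). Ddt, D-dopachrome tautomerase, had 120.5, 175.8 and 18.08 in KO and 492.6, 745.7 and 518.8 in WT GFP livers (−2.96, SE 0.59, adjusted p = 0.162). The histone gene H2afj differed by −2.18, the ribosomal protein gene Rpl35 by −1.92 and the actin-binding protein gene Cotl1 by −1.28. For Etfb, Ddt, H2afj and Rpl35 the KO GFP replicate 3 library was the lowest of the 6, and without it the differences were −2.16, −1.98, −1.62 and −1.51. With the length trend removed the differences of these 4 genes were −2.19, −2.32, −1.81 and −1.42.

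**Figure D2:**
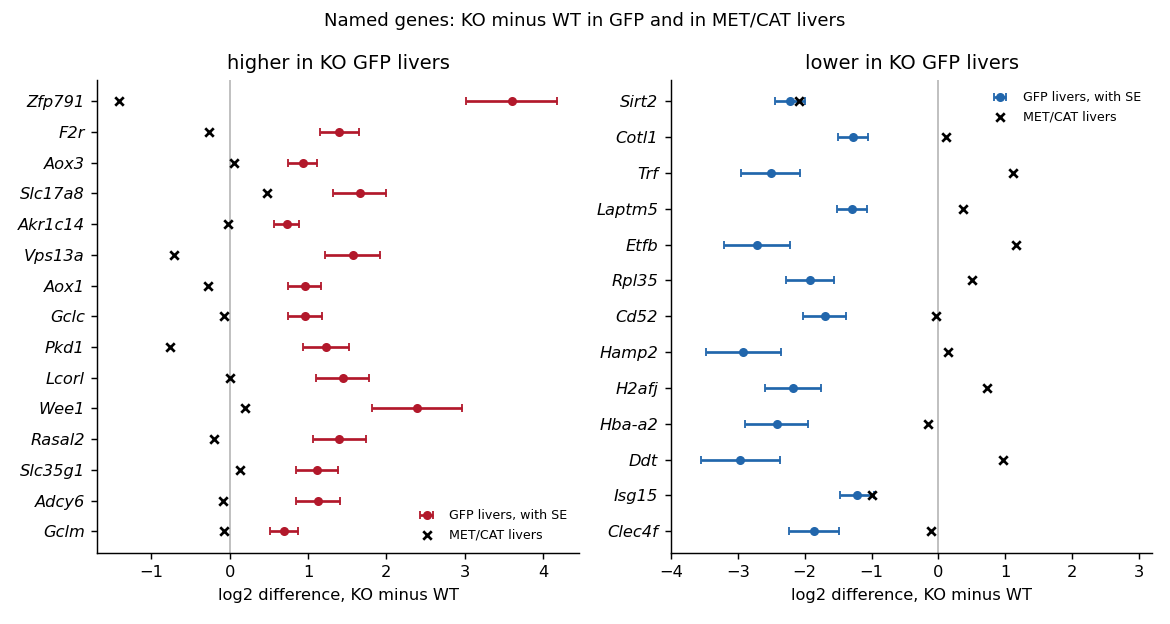
Differences (KO minus WT, log2) of the 15 higher genes and of 13 lower genes including Sirt2, chosen by smallest p, with SE in GFP livers as dots with bars and the MET/CAT difference as a cross. Dot and cross lie together for Sirt2, at −2.22 and −2.09, and close for Isg15, while for Trf they are at −2.51 and 1.12.

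Macrophage and Kupffer cell markers had lower values in KO GFP livers, and none was called. Of 14 measured Kupffer cell markers, 13 had a negative difference, 8 were lower without overlap and the median was −1.14. The iron exporter Slc40a1 was the 1 higher gene (0.58). Here and below, members of counts of 5 or fewer are named after their values were seen. Of 21 C1q and macrophage markers, 19 had a negative difference, 13 were lower and none higher without overlap, and the median was −1.19. The other 2 had positive differences of at most 1.43. Monocyte markers did not share this direction. Of 8 measured, 4 had a negative and 4 a positive difference, with 1 lower and 1 higher without overlap and a median of −0.08. Over all genes tested, 55.1% had a negative difference, 13% were lower without overlap and the median was −0.07. In bulk tissue, fewer cells of a type and less RNA per cell cannot be told apart.

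Clec4f (chr6:83644542-83656187), a lectin of Kupffer cells, had 1062, 1153 and 355.3 in KO GFP livers, against 2177, 3309 and 2890 in WT GFP livers (−1.86, SE 0.38, limma adjusted p = 0.162). Cd5l, a protein secreted by tissue macrophages, had 920, 1151 and 285.7 in KO and 1605, 1758 and 2193 in WT GFP livers (−1.45, adjusted p = 0.272). KO GFP replicate 3 was far below the other KO livers for both, and without it the differences were −1.31 and −0.83. Laptm5 (chr4:130913125-130936141), a lysosomal protein of leukocytes, separated the groups more evenly, at 224.4, 245.9 and 163.6 in KO and 518.6, 520.1 and 492.8 in WT GFP livers (−1.29, SE 0.22, adjusted p = 0.107). Csf1r, the receptor of the macrophage growth factor CSF1, had 324.5, 355.4 and 330 in KO and 513.6, 633.5 and 648.8 in WT GFP livers (−0.82, adjusted p = 0.272). Its difference was −0.81 without KO GFP replicate 3. C1qa, a subunit of complement C1q, differed by −1.88, or −1.08 without that library. The microglia and macrophage protein gene Aif1 differed by −1.40, and Cd52, a surface antigen of leukocytes, had 76.79, 85.49 and 34.35 in KO and 223.4, 224.4 and 160.2 in WT GFP livers (−1.70, SE 0.32, adjusted p = 0.145).

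Summed over the 14 Kupffer cell markers, levels were 6137 to 8405 in KO GFP and 10452 to 12192 in WT GFP livers. Summed over the 21 macrophage markers they were 2742 to 5540 in KO GFP and 8127 to 10093 in WT GFP livers. Without KO GFP replicate 3 the medians were −0.76 and −0.60, with 8 and 14 genes lower without overlap against 17% of all genes. With the length trend removed they were −0.91 and −0.86.

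Lymphocyte markers pointed the same way at low counts. Of 13 T and NK cell markers, 4 (30.8%, against 13% of all genes) were lower without overlap, Cd3e, Cd3g, Gzma and Thy1. Their list had a median of −1.11, or −0.70 without KO GFP replicate 3. Thy1, a surface protein of T cells and fibroblasts, had 27.1, 63.4 and 30.74 in KO and 79.78, 107.7 and 81.42 in WT GFP livers (−1.22, adjusted p = 0.287). Of 9 B and plasma cell markers, 1 was lower without overlap, and this share of 11.1% was below the 13% of all genes. The median was −0.74, or −1.14 without WT GFP replicate 3. The lower gene was Igkc, the constant region of the kappa light chain, at −1.92 (adjusted p = 0.272), or −1.27 without KO GFP replicate 3. Sinusoidal endothelial markers had a median of −0.24 over 15 genes, and −0.04 without KO GFP replicate 2. Of them 2 were lower without overlap, Clec4g (−1.01, or −0.43 without KO GFP replicate 3) and Eng (−0.79), a share of 13.3% against 13% of all genes. Of 15 stellate cell and matrix genes, Col1a2 and Col3a1 were higher and Des, Ecm1, Timp1 and Colec11 lower without overlap. These shares were 13.3% and 26.7%, against 9.15% and 13% of all genes, and the median was near 0. Collagen gene Col3a1 had 2348, 1996 and 2917 in KO and 1818, 1413 and 803.8 in WT GFP livers (0.91, adjusted p = 0.273), or 0.58 without WT GFP replicate 3, whereas Ecm1 differed by −1.83, or −0.97 without KO GFP replicate 3.

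Haemoglobin transcripts were lower in KO GFP livers. Hba-a2 (chr11:32296489-32297298), an alpha-globin gene, had 331.3, 379.4 and 416.7 in KO GFP livers, against 3013, 2179 and 1221 in WT GFP livers (−2.42, SE 0.47, limma adjusted p = 0.145). Its near-identical copy Hba-a1 may share its reads and overlapped between the groups, at 2539, 1875 and 3133 in KO and 10417, 7878 and 3032 in WT GFP livers. Hbb-bs, a beta-globin gene, was lower without overlap too (−1.48), whereas Alas2, the heme synthesis enzyme of red cells, was higher (0.47). The 7 red blood cell genes together took 0.0387%, 0.0277% and 0.0441% of the reads in KO GFP livers, against 0.129%, 0.0844% and 0.0505% in WT GFP livers. The groups did not overlap (exact two-sided permutation test p = 0.1, the smallest possible with 3 against 3). Blood left in the tissue was not measured, and its part in this difference was not tested.

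Antigen presentation genes were lower for both MHC classes. Of 7 MHC class II genes, 5 were lower without overlap (71.4%, against 13% of all genes). These were Cd74, H2-Aa, H2-Ab1, H2-Eb1 and H2-DMa. The list median was −1.09, or −0.60 without KO GFP replicate 3. H2-Ab1 (chr17:34257689-34269419), a class II chain of antigen-presenting cells, had 569.2, 378.5 and 238.7 in KO and 680.1, 809.1 and 911.2 in WT GFP livers (−1.09, SE 0.28, adjusted p = 0.272). Hepatocytes express MHC class I and peptide loading genes too. Of 17 such genes, 13 were lower and none higher without overlap (76.5% and 0%, against 13% and 9.15% of all genes). Their median was −0.61, or −0.39 without KO GFP replicate 3 and −0.44 with the length trend removed. Psmb8 (chr17:34197721-34201454), an interferon-induced subunit of the immunoproteasome, had 439.7, 644.5 and 320.9 in KO and 969.3, 1554 and 1004 in WT GFP livers (−1.35, SE 0.29, adjusted p = 0.215). Tapbp, which loads peptides onto class I molecules, had 2512, 2535 and 2265 in KO and 4003, 4171 and 3437 in WT GFP livers (−0.66, SE 0.18, adjusted p = 0.272). Psmb10 and Psme2, further subunits of the proteasome and its activator, differed by −0.83 and −0.66.

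Interferon response genes were lower in GFP livers, and the 3 KO libraries were alike in this. Of 40 measured, 36 had a negative difference and none was called. Without overlap 20 were lower and none higher (50% and 0%, against 13% and 9.15% of all genes). The median was −0.59, or −0.54 without KO GFP replicate 3, where 25 were lower without overlap against 17% of all genes. With the length trend removed it was −0.45. Isg15 (chr4:156199424-156200818), a ubiquitin-like modifier, had 310.9, 354.5 and 300.1 in KO GFP livers, against 621.3, 719.6 and 937.2 in WT GFP livers (−1.22, SE 0.25, limma adjusted p = 0.162). Ifit3 (chr19:34583531-34588731), an antiviral RNA-binding family member, had 234.1, 230.5 and 271.2 in KO and 512.6, 498.6 and 656.6 in WT GFP livers (−1.17, SE 0.29, adjusted p = 0.272). It shares high sequence similarity with Ifit3b, and reads may be split between the copies. Oasl1, related to the oligoadenylate synthetases, had 216.8, 170 and 212.4 in KO and 434.8, 438.6 and 364.7 in WT GFP livers (−1.05, SE 0.27, adjusted p = 0.272). Ifi35 differed by −1.43, or −1.09 without KO GFP replicate 3. The difference of Isg15 was −1.17 without that library and −0.58 with the length trend removed.

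**Figure D3:**
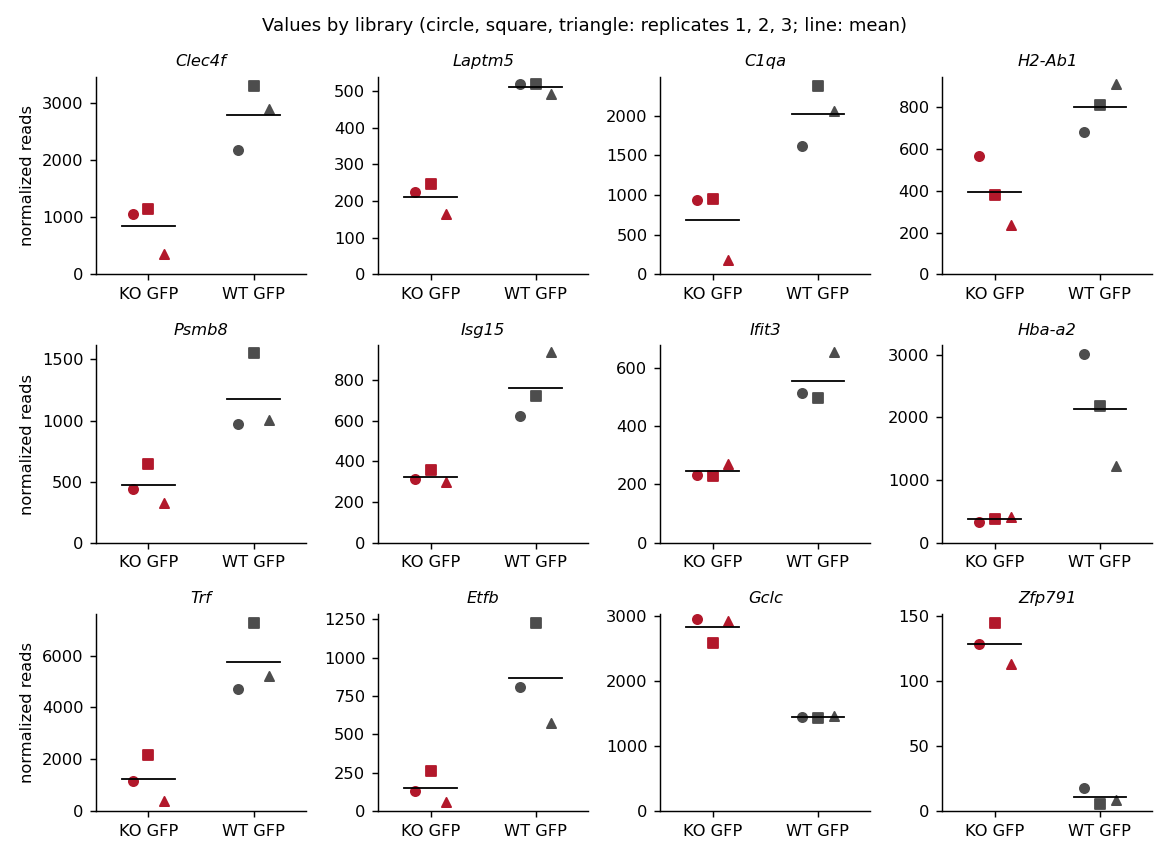
Normalized reads of 12 genes in the 3 KO GFP (left) and 3 WT GFP (right) libraries, on linear axes from 0, with lines at group means. Groups do not overlap in any panel, and KO GFP replicate 3 (triangle) lies far below the other KO livers for Clec4f, C1qa and Trf and close to them for Isg15, Ifit3 and Gclc.

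**Figure D4:**
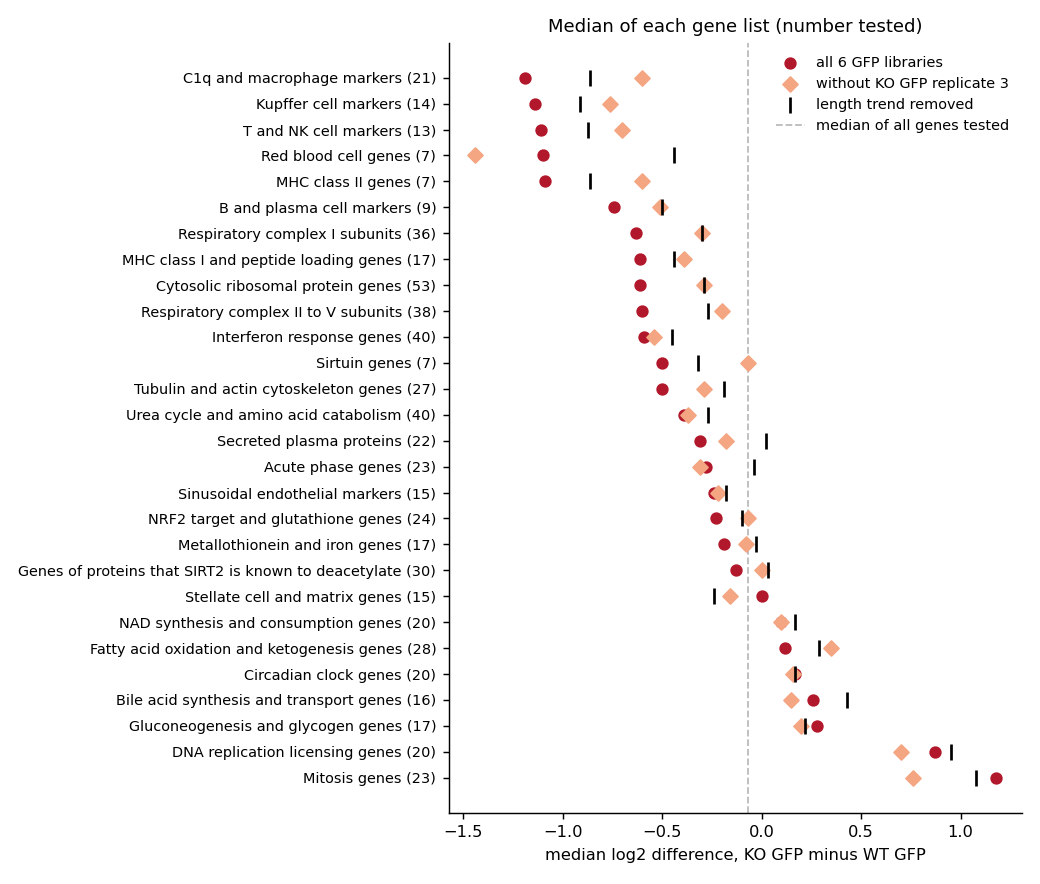
Median difference (KO GFP minus WT GFP, log2) of 28 gene lists with all 6 libraries (circles), without KO GFP replicate 3 (diamonds) and with the length trend removed (bars), beside the median of all genes. Interferon response genes have medians of −0.59, −0.54 and −0.45 in these fits, while complex I subunits have −0.63, −0.30 and −0.30.

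Genes of respiration and translation had lower values in KO GFP livers, and none was called. Of 36 complex I subunits 35 had a negative difference, with a median of −0.63. Without overlap, 9 were lower (25%, against 13% of all genes) and 1, Ndufs1, was higher (0.21). Of 38 subunits of complexes II to V, 3 were lower without overlap, Sdhb, Atp5j2 and Atp5k, and 1 higher, Uqcrc2 (0.36), and the median was −0.60. The lower share there, 7.89%, was below that of all genes. Of 53 cytosolic ribosomal protein genes, 10 (18.9%) were lower and none higher without overlap, and the median was −0.61, or −0.38 without WT GFP replicate 2. These medians were −0.30, −0.20 and −0.29 without KO GFP replicate 3, and −0.30, −0.27 and −0.29 with the length trend removed. The median exon lengths of the lists were 1532, 1831 and 2007 bases. The complex I subunit gene Ndufb10 had 5159, 6336 and 2658 in KO and 8481, 12159 and 7034 in WT GFP livers (−1.02, adjusted p = 0.284), or −0.65 without KO GFP replicate 3, and the ATP synthase subunit gene Atp5k differed by −1.69, or −0.89 without KO GFP replicate 3. Rpl19 had 632.4, 994.2 and 731.3 in KO and 1235, 1877 and 1383 in WT GFP livers (−0.93, adjusted p = 0.272). Ribosomal protein genes have many processed copies, and their reads may be shared.

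Amino acid catabolism was lower in part. Of 40 urea cycle and amino acid genes, 14 were lower and 2, Glud1 and Tdo2, higher without overlap (35% and 5%, against 13% and 9.15% of all genes). The median was −0.39, or −0.25 without KO GFP replicate 2. It was −0.22 with equal library totals and −0.12 under quantile normalization, beside medians of all genes of 0.11 and 0.02. Gnmt (chr17:46725664-46729168), glycine N-methyltransferase, had 48427, 42544 and 38597 in KO and 79203, 100378 and 76993 in WT GFP livers (−0.98, SE 0.28, adjusted p = 0.272). Hpd, of tyrosine breakdown, had 38999, 34963 and 31286 in KO and 64623, 73598 and 56464 in WT GFP livers (−0.88, SE 0.26, adjusted p = 0.272). Cbs, which makes cystathionine from homocysteine, and the alanine aminotransferase Gpt differed by −0.68 and −0.79. The groups did not overlap for any of the 4 genes, and their differences without KO GFP replicate 3 were −0.90, −0.81, −0.77 and −0.65.

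Secreted plasma protein genes are products of the hepatocyte. Of 22, 7 were lower and none higher without overlap (31.8% and 0%, against 13% and 9.15% of all genes). Their median was −0.31. It was −0.19 without WT GFP replicate 2, −0.18 without KO GFP replicate 3 and 0.02 with the length trend removed. Apoa2 and Apoc3, apolipoproteins of HDL and of triglyceride-rich particles, each differed by −1.23, or −0.62 and −0.64 without KO GFP replicate 3. Serpina1c, one of a set of near-identical antitrypsin genes, differed by −1.67, or −1.08 without KO GFP replicate 3. Of 23 acute phase genes, 3 were higher, Cp, Il6ra and Il1r1, and 7 lower without overlap (13% and 30.4%, against 9.15% and 13% of all genes). Their median was −0.28, with −0.44 to −0.15 when 1 library was left out. The orosomucoid genes Orm1, Orm2 and Orm3 differed by −0.93, −1.68 and −2.34 and may share reads, and Orm1 was −0.55 without WT GFP replicate 2, while the interleukin-1 receptor gene Il1r1 had 248.4, 293 and 415.8 in KO and 136.6, 107.7 and 155 in WT GFP livers (1.24, adjusted p = 0.284).

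Bile acid and glucose genes included several with higher values in KO GFP livers. Of 16 bile acid genes, 6 were higher and 1, Slc27a5, lower without overlap, against 9.15% higher over all genes, and the median was 0.26, or 0.15 without KO GFP replicate 3. Cyp7a1 (chr4:6265612-6275633), the rate-limiting enzyme of bile acid synthesis, had 2642, 2604 and 8181 in KO and 1268, 1142 and 2135 in WT GFP livers (1.39, SE 0.41, adjusted p = 0.272). KO GFP replicate 3 was the highest library, and the difference was 0.85 without it. Slco1a1, a sinusoidal transporter of organic anions, had 3747, 4548 and 2854 in KO and 1623, 2528 and 971.8 in WT GFP livers (1.20, adjusted p = 0.283). The transporters Slco1b2 and Abcc2 differed by 0.50 and 0.64, and Abcc2 by 0.38 without KO GFP replicate 3.

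Of 17 gluconeogenesis and glycogen genes, 3 were higher, among them Pck1 and Gbe1, and none lower without overlap, or 17.6% higher against 9.15% of all genes. Their median was 0.28, or 0.16 without WT GFP replicate 2. Pck1 (chr2:173153048-173159273), which encodes PEPCK1, a substrate of SIRT2 as a protein, had 48724, 42487 and 47367 in KO and 38054, 21526 and 22724 in WT GFP livers (0.80, SE 0.33, adjusted p = 0.297). Gbe1, the glycogen branching enzyme, had 2189, 1765 and 1953 in KO and 1162, 1121 and 1547 in WT GFP livers (0.63, SE 0.18, adjusted p = 0.272). Of 28 fatty acid oxidation and ketogenesis genes, 3 were higher, among them Acadvl and Etfdh, and none lower without overlap, and 10.7% higher is near the background. With KO GFP replicate 3 left out, 10 were higher without overlap, against 13.2% of all genes. Their median was 0.12, or 0.35 without that library, and it turned to −0.04 without KO GFP replicate 2 and −0.02 without WT GFP replicate 3. Cpt1a, which admits fatty acids to mitochondria, differed by 0.60 (adjusted p = 0.297) with overlapping libraries, or 0.38 without KO GFP replicate 3.

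The NRF2 target and glutathione list did not follow Gclc and Gclm. Of 24 genes, 3 were higher and 2 lower without overlap (12.5% and 8.33%, against 9.15% and 13% of all genes). The median was −0.23, or −0.07 without KO GFP replicate 3. Catalase, Cat, was the remaining higher gene (0.32), and Sod1 and Osgin1 were the lower ones. The canonical NRF2 target Nqo1 overlapped between the groups at −0.25. Sod1 and Gpx1, short genes for superoxide dismutase and glutathione peroxidase, differed by −1.01 and −1.03, and by −0.63 and −0.74 without KO GFP replicate 3.

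Cell cycle genes had higher means in KO GFP livers with overlapping libraries. All 23 mitosis genes had a positive difference, against 44.9% of all genes, with a median of 1.18, but only Kif11, a motor of the spindle, was higher without overlap (1.18, or 0.76 without KO GFP replicate 3). The summed level was 705.4, 1777 and 1935 in KO GFP livers, against 1628, 468 and 446.1 in WT GFP livers, so that KO GFP replicate 1 and WT GFP replicate 1 lay among the other group. Leaving out WT GFP replicate 1 gave a median of 1.89, leaving out WT GFP replicate 2 gave 0.67, and leaving out KO GFP replicate 3 gave 0.76. With library quality weights it was −0.48. Of 20 DNA replication licensing genes, 2 were higher without overlap, Pcna and Rrm2, with a median of 0.87. That median was 0.49 without WT GFP replicate 2 and −0.15 with the weights. Pcna, the sliding clamp of DNA polymerases, had 677.6, 781.9 and 866.9 in KO and 565.4, 403.4 and 494.6 in WT GFP livers (0.67, SE 0.19, adjusted p = 0.272). Mcm5, a subunit of the replication helicase, had 131, 391.9 and 581.3 in KO and 204.4, 38.53 and 56.3 in WT GFP livers, and its difference of 2.01 turned to −0.05 with the weights.

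The other sirtuins had no call. Sirt5 and Sirt7, of mitochondria and the nucleolus, were lower without overlap at −0.58 and −0.50, and these were −0.40 and −0.29 without KO GFP replicate 3. Sirt1, Sirt3 and Sirt6 differed by 0.22, 0.03 and −0.16. Of 30 genes whose proteins SIRT2 is known to deacetylate, 1 was higher and 4 lower without overlap, 3.33% and 13.3%, against 9.15% and 13% of all genes, and the median was −0.13, or 0.00 without KO GFP replicate 3. The higher gene was Pck1, and the lower genes were the alpha-tubulin genes Tuba4a (−0.89), Tuba1c (−0.65, or −0.41 without KO GFP replicate 3) and Tuba1a (−0.48) and the pyruvate kinase gene Pkm (−0.82). Of 27 tubulin and actin cytoskeleton genes, 10 were lower and 1, Actn1, higher without overlap (37% and 3.7%, against 13% and 9.15% of all genes). Their median was −0.50, or −0.29 without KO GFP replicate 3 and −0.19 with the length trend removed. Cotl1 led the lower genes, at 251.5, 316 and 182.6 in KO and 689.1, 567.7 and 531.8 in WT GFP livers.

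Of 20 genes of NAD synthesis and consumption, 6 were higher and 4 lower without overlap (30% and 20%, against 9.15% and 13% of all genes). Their median was 0.10, and as low as 0.03 with 1 library left out. The lower genes were Nmnat3, Naprt, Qprt and Nnmt. Nampt (chr12:32819545-32853349), the rate-limiting enzyme of NAD salvage, had 2522, 2264 and 2323 in KO and 1524, 1744 and 874.8 in WT GFP livers (0.84, SE 0.25, adjusted p = 0.278). Nnmt, which methylates nicotinamide and so takes it out of salvage, had 2582, 2144 and 1993 in KO and 5566, 8298 and 3187 in WT GFP livers (−1.25, SE 0.30, adjusted p = 0.241). Values of both genes without KO GFP replicate 3 were 0.85 and −1.17, and Nampt was 0.54 without WT GFP replicate 3. Of 20 circadian clock genes, 5 were higher, Per2, Per3, Nr1d2, Tef and Hlf, and 2 lower, Npas2 and Bhlhe41, without overlap. These shares were 25% and 10%, against 9.15% and 13% of all genes, and the median was 0.17, or 0.01 without WT GFP replicate 3. Per2, a repressor of the clock loop, had 394.5, 244 and 281.1 in KO and 192.5, 143.9 and 139.5 in WT GFP livers (0.93, adjusted p = 0.29). The clock output factor Hlf differed by 0.63 (adjusted p = 0.283). The sources used here do not give the hour of collection.

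The MET/CAT livers, separate samples of the same genotypes, showed how far the differences recurred with the oncogenes. Of the 1269 genes higher without overlap in KO GFP livers, 41.6% had a positive difference in KO against WT MET/CAT livers, where 49.7% of all genes had one. Of the 1797 lower genes, 43.4% had a negative difference there, against 50.3% of all genes. Without overlap in both settings, 62 of the 1269 genes were higher (4.89%) and 81 of the 1797 lower (4.51%). These counts were 129 of 1793 and 24 of 1274 with equal library totals. In MET/CAT livers alone, 6.82% of all genes were higher and 7.01% lower without overlap, with values as deposited. Both shares as deposited were thus below those of all genes. The shares of all genes in MET/CAT livers were not computed with equal library totals. The opposite pattern, lower in GFP and higher in MET/CAT livers, held for 130 genes (7.23%) and the reverse for 103 (8.12%).

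Sirt2 also fell in MET/CAT livers, at 248.1, 234.3 and 200.6 in KO and 1068, 942.7 and 908.4 in WT MET/CAT livers (−2.09, SE 0.23, limma adjusted p = 0.00394). The test of the difference between the settings gave −0.13 (SE 0.32, limma adjusted p = 0.863). Most interferon response genes were lower in both, with a median of −0.75 in MET/CAT livers, where 34 of 40 had a negative difference. Without overlap 14 were lower and 2 higher there, against 7.01% and 6.82% of all genes. Summed over the 40 genes, levels overlapped, at 49455, 31989 and 26006 in KO and 27762, 43453 and 30369 in WT MET/CAT livers. The 10 lower without overlap in both settings included, named after their values were seen, Isg15, Ifit1, Ifit3, Ifit3b, Rsad2, Usp18, Zbp1, Dhx58 and Xaf1. Isg15 had 328.7, 322.2 and 422.5 in KO MET/CAT livers, against 919, 797.2 and 485.9 in WT MET/CAT livers, and Ifit3 differed by −1.38 there. Kupffer and macrophage markers had medians of 0.04 and 0.16 there, MHC class II genes of 0.21, and complex I subunits of 0.36.

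Trf, Etfb, Zfp791 and Ddt were among the named genes with opposite signs in the GFP and MET/CAT settings. F2r, Vps13a, Pkd1, H2afj, Rpl35 and Laptm5 were others. Of the 15 higher genes, 2 were lower and 0 higher without overlap in MET/CAT livers, against 7.01% and 6.82% of all genes. Of the 12 lower genes, 4 were higher and 1 lower without overlap there. Trf had 2389, 2976 and 2402 in KO MET/CAT livers, against 1458, 1144 and 994 in WT MET/CAT livers (1.12), and the test of the difference gave −3.63 (SE 0.62, limma adjusted p = 0.19). Etfb differed by 1.16 in MET/CAT livers, with an adjusted p of 0.19 for the difference between settings. In that test limma called 0 of 13871 genes (0%), while 2153 (15.5%) had an unadjusted p under 0.05, edgeR called 0 and DESeq2 169 (1.22%). An effect present in one setting and absent in the other was therefore not shown by the limma test for any gene.

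**Figure D5:**
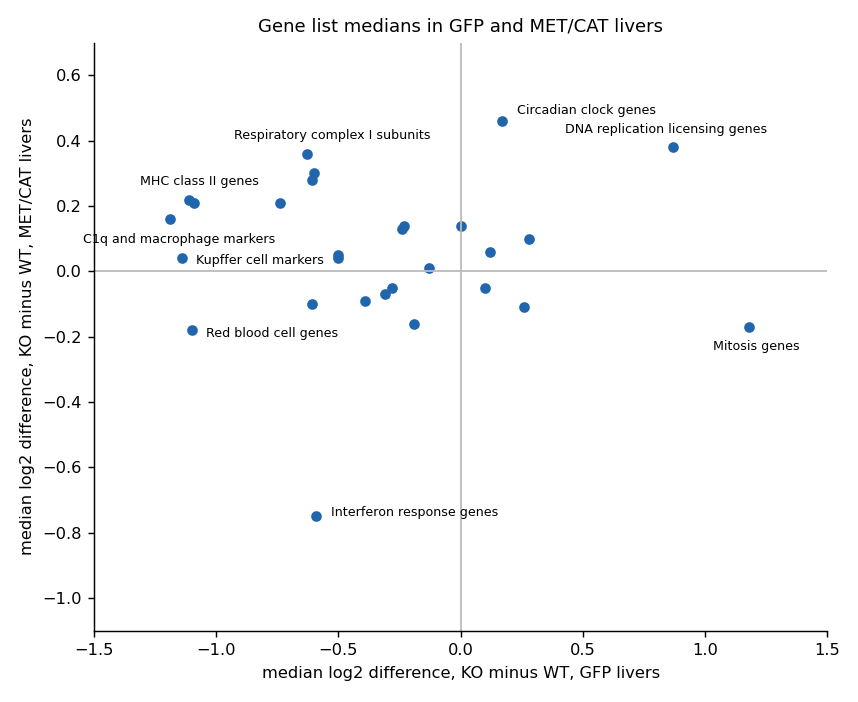
Median difference (KO minus WT, log2) of the 28 gene lists in GFP livers (x axis) and MET/CAT livers (y axis), 1 point per list. Interferon response genes are at −0.59 and −0.75, while Kupffer cell markers are at −1.14 and 0.04.

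Genes next to Sirt2 were examined because alleles linked to a targeted locus can differ between strains. Of 97 annotated genes with a start within 1000000 bases of that of Sirt2, 43 were tested and none was called. The smallest limma adjusted p was 0.278. The median difference was −0.37, against −0.07 for all genes, and 33 had a negative difference, against 55.1% of all genes. Without overlap 1 gene was higher and 5 lower, where all genes had shares of 9.15% and 13%. Gmfg, a regulator of actin branching in leukocytes, differed by −1.23, or −0.69 without KO GFP replicate 3, the kinase gene Dyrk1b by −0.71 and the elongation complex gene Paf1 by −0.54. The zinc finger gene Zfp607a and the Golgi transport gene Yif1b differed by −0.97 and −0.46, and Yif1b by 0.00 with the length trend removed. Zfp626 was the higher gene, at 0.30. In MET/CAT livers these groups overlapped for all 6 genes.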

How the data were processed

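RNA sequencing of whole liver gave 12 libraries, grouped by sample title. The submitters' processing notes name HISAT2 2.0.4, HTSeq 0.11.2 and build GRCm38. The sources used here give neither kit, strand setting nor normalization tool, so reads of overlapping and antisense genes cannot be told apart. As deposited, each value is a signal: a gene count divided by 1 factor per library. A read was worth 0.753 to 1.133 units in the GFP libraries, and division by this step gave whole reads for all values within 0.001. In 2 of the 12 libraries the step lies too near 1 for this to be a test. A count of 0 allows up to 2.26 to 3.4 units in a GFP library, for counting error only. The 26 date-like names, 2 of them used more than 1 time, were left unnamed.

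Values were tested as log2(value + 1), where changes of low genes come out too small, with limma 3.58.1 (R 4.3.3), a mean-variance trend and 4 group means over 12 libraries. Calls needed a Benjamini-Hochberg adjusted p under 0.05 over all 13871 genes. Alternatives were pseudocounts of 0.5 and 10, no filter, a mean of at least 50, quantile normalization, equal totals, library quality weights, edgeR 4.0.16, DESeq2 1.42.0, a replicate block, the 6 GFP libraries alone, loess removal (span 0.5) of each library's trend with GENCODE M21 exon length, and each GFP library left out. Both count tools ran on recovered reads. Overlap counts without KO GFP replicate 3 were added after the data were seen. The fits were checked on simulated counts.

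Named genes are the 15 higher and 15 lower ones with the smallest limma p among those with no overlap and a higher group mean of at least 100, without predicted genes and pseudogenes, and in a described list the 4 of smallest p. The genes compared and the 50 gene lists were chosen with earlier results of these data known. The 28 lists of the main results and figures hold 632 entries, of which 619 passed the filter on low values. Besides these, a list of monocyte markers is given with the macrophage markers. Lists of neutrophil markers, hepatocyte transcription factors, sex-biased genes and noncoding RNAs are given under other observations. Some genes stand in more than 1 list, and no list was tested. A few genes that meet these rules are not reported here. Promoters come from RefSeq.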

Additional observations from a re-analysis of the deposited data

How the results depend on the processing

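The count of 1 called gene held under other pseudocounts, filters and scalings, with edgeR and with the length trend removed. Library quality weights called 4575 genes in GFP livers and 1374 between the settings, with weights of 6.06 for KO GFP replicate 1 and 7.25 for WT GFP replicate 1 against 0.24 to 1.31 for the other libraries. DESeq2 called 121 and 169, and the fit of 6 GFP libraries called 0, where Sirt2 kept −2.22 (adjusted p = 0.101). The fits leaving out 1 library called 1 to 10 genes, with 10 without KO GFP replicate 2, among them Trf, Etfb, Cotl1, H2afj, Rpl35 and Ddt. Between the settings they called 0 to 3, with 3 without KO GFP replicate 2 and 2 without KO GFP replicate 3. With equal library totals, 129 genes were higher and 24 lower without overlap in both settings.

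GFP libraries of the same replicate number correlated across genotypes at −0.0231, 0.28 and 0.264. Libraries of unlike number were not compared, so these values cannot show whether the numbers pair the samples. With the replicate number as a block limma called 7 genes (1 higher, 6 lower) and 2 between the settings, and Sirt2 kept −2.22 (adjusted p = 0.00139).

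Signs turned for few named genes. With library quality weights Mcm5 was −0.05, Mcm6 −0.14, Top2a −0.38, Plk1 −0.03 and Pecam1 0.01, and with the length trend removed Hamp was 0.09. The cause was not tested. Over all genes, overlap counts without KO GFP replicate 3 stayed within 1.5 times those of all libraries, while counts of single lists moved further.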

Other observations

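The 10 genes with the highest mean over the GFP libraries were Alb, Apoe, Apoa1, Apoa2, Ahsg, Ttr, C3, mt-Co1, Scd1 and Selenop, all but mt-Co1 and Scd1 genes of secreted proteins. They took 19.6%, 22% and 19.2% of the reads in KO GFP livers, against 19.6%, 20% and 21.1% in WT GFP livers (exact two-sided permutation test p = 0.9, smallest possible 0.1). Albumin alone took 8.17%, 9.78% and 10.9% in KO GFP livers, against 7.6%, 6.52% and 8.25% in WT GFP livers (p = 0.2 by the same exact test). Mitochondrially encoded genes took 2.97%, 2.47% and 3.7% in KO GFP and 2.33%, 1.75% and 3.67% in WT GFP livers (exact p = 0.4).

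The X-inactivation transcript Xist had 2287, 1530 and 1602 normalized reads in KO GFP livers, against 2300, 1804 and 2158 in WT GFP livers. The Y-linked gene Ddx3y stayed at or below 3.842 in KO GFP and 9.066 in WT GFP livers. Uty, Eif2s3y and Kdm5d, also Y-linked, stayed at or below 5.197 in all 6 GFP libraries. Of 16 male-biased liver genes, 3 (18.8%, against 9.15% of all genes) were higher, Cyp4a12a, Cyp4a12b and Slco1a1, and none lower without overlap. The median difference of the list was 0.12. It ranged from −0.12 without WT GFP replicate 3 to 0.95 without KO GFP replicate 3. Of 15 female-biased liver genes, 1, Fmo2, was higher without overlap (6.67%, against 9.15% of all genes), and the median was −0.59. It ranged from −1.21 without KO GFP replicate 3 to −0.12 without KO GFP replicate 2, and was 0.20 and 0.18 with edgeR and DESeq2.

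Nuclear and long noncoding RNAs had a median difference of −0.87 over 10 genes, with Neat1, Meg3 and Gas5 lower without overlap (30%, against 13% of all genes). The median was −0.54 without KO GFP replicate 3 and −1.02 with the length trend removed. Of 12 neutrophil markers, 2, S100a8 and Mmp9, were lower without overlap, a share of 16.7% near the 13% of all genes, and the median was −0.73. It was −0.48 if KO GFP replicate 1 was left out and −0.40 if WT GFP replicate 2 was. Of 16 hepatocyte transcription factors, Prox1 and Onecut1 were higher and Cebpa and Nr0b2 lower without overlap, 12.5% each way against 9.15% and 13% of all genes, with a median of 0.05.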
